A study of Rattus norvegicus with 12 samples.

Results

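Collagen alpha chain genes were taken as all genes of the deposited count table whose symbol is Col, a number, a, and a number. The rule found 44 of 30562 genes: 11 fibrillar chains, 6 chains of basement membrane collagen (type IV), 9 fibril-associated chains (FACIT collagens) and 18 others. Of 45 chains listed for this work, Col21a1 was not analysed here. Poly(A) RNA of rat (Rattus norvegicus) sciatic nerve stumps was counted in 12 samples, 3 per group. The groups were Control, CC4:2 and CC4:4 (stumps in a truncated-cone conduit of 1 of 2 gradients), and VP4:2 (the 4:2 conduit carrying verteporfin, a compound that keeps the coactivator YAP from its TEAD partners). The sources used here give no strain, sex, age, time of sampling or treatment of the control stumps. They also do not say that replicates are separate animals, so the p-values reflect only how far these samples differ, and part of that may be technical.

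Collagens are trimers of alpha chains wound into a triple helix. Fibrillar collagens (types I, III, V and XI, with II, XXIV and XXVII) form cable-like fibrils, among them those of the epineurium and endoneurium, and in nerve are made mainly by fibroblasts. Type IV chains form the sheet of the basement membrane that wraps Schwann cells, perineurial cells and vessels, FACIT collagens sit on the surface of fibrils, and type VI builds beaded filaments between fibrils and basement membranes. In a cut nerve, fibroblasts lay down fibrillar collagen as scar, and Schwann cells need their own basement membrane to make myelin.

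The 6 type IV genes lie in head-to-head pairs that are transcribed away from each other. The sequences between the starts of Col4a1 and Col4a2, and of Col4a3 and Col4a4, are shown because the paired chains are compared throughout. That between Col4a5 and Col4a6 is not shown. In RefSeq's gene models on build GRCr8, 76 bases separate the starts of Col4a1 and Col4a2, 412 those of Col4a3 and Col4a4, and 1414 those of Col4a5 and Col4a6. The stretch between Col4a1 and Col4a2 (chr16:84885521-84885596, plus strand, read toward Col4a1) is 78.9% G and C, and its capitals mark a match to the GC box (GGGCGG on either strand). For Col4a3 and Col4a4 the 250 bases before each start are given, and the capitals mark the 88 bases that both stretches share, on opposite strands.
Col4a1 to Col4a2: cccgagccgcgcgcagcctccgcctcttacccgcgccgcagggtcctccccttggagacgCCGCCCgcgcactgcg
Col4a3 (chr9:91323740-91323989, plus strand): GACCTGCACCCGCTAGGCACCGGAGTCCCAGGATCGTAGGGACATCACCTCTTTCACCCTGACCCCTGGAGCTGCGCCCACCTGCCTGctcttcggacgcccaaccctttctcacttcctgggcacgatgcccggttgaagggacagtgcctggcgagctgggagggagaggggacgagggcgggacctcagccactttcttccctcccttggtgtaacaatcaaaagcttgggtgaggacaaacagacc
Col4a4 (chr9:91323578-91323827, minus strand): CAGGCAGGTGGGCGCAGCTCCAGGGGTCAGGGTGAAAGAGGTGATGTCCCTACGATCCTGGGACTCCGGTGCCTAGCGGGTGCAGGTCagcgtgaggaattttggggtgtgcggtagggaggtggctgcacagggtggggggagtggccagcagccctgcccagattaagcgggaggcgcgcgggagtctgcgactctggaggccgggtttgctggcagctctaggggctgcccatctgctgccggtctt

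RefSeq windows of 300 bases (250 before to 50 after the start) matched 35 of the 44 genes by symbol. The TEAD motif GGAATG, searched on both strands, was in 5 of the 35 (14.3%) and in 15.0% of 27457 genes with a window. Those 5 were Col11a2, Col17a1, Col24a1, Col4a6 and Col6a6. The CCAAT box (CCAAT, both strands) was in 31.4% of the 35 against 39.6% of all, and the GC box in 54.3% against 36.0%, including 5 of the 6 type IV genes, although the windows of Col4a1 and Col4a2 share 176 bases. A match is a run of letters, counted whether or not another motif overlaps it, and is not a bound site.

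Totals ran from 13763093 to 18632300 counts per sample. Levels are CPM (counts relative to library size, scaled by the TMM factors of edgeR) and are listed for replicates 1, 2 and 3 in that order. Fold changes are log2 values ± SE from an edgeR quasi-likelihood fit of all 12 samples, with p adjusted by Benjamini-Hochberg over 15712 genes, and a gene is said to have risen or fallen at an adjusted p under 0.05. Comparisons that share a group share its samples. Of the 44 genes 42 passed the filter on low counts. Col10a1 (at most 7 counts in a sample) and Col25a1 (at most 17) did not. Control replicate 1 stood apart from the other controls: its 10 Schwann cell markers summed to 343 CPM, where the 11 other stumps ran from 2379 to 33018 and the other controls stood at 4264 and 2457, and its collagens to 82544 against 21032 and 19812. Counts of calls against Control are given with and without it. It was singled out in part by its collagen sum, so leaving it out is no independent test of the collagen genes. For 27 of the 42 genes tested it was the highest control, so leaving it out lowers the control mean, and 2 controls remain. The values of single collagen genes against Control that are printed below are given both ways where leaving it out changed the call or moved the value by over 1.5-fold.

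Summed by class, fibrillar genes stood at 26958, 69676 and 42125 CPM in CC4:2, at 23593, 26440 and 18983 in VP4:2, at 53737, 50351 and 75877 in CC4:4 and at 71160, 15551 and 15111 in Control. The 3 VP4:2 stumps lay below all CC4:2 and CC4:4 stumps, while the controls lay at both ends of the range. Type IV genes summed to 2478, 6288 and 3797 in CC4:2, to 2112, 2811 and 1926 in VP4:2, to 3037, 1542 and 2493 in CC4:4 and to 2032, 1047 and 952 in Control, so CC4:2 lay above Control in every stump but overlapped CC4:4 and VP4:2. As a share of all collagen counts, type IV took 6.97, 7.09 and 7.02% in CC4:2 and 6.49, 7.57 and 7.22% in VP4:2, against 2.46, 4.98 and 4.81% in Control and 4.65, 2.63 and 2.80% in CC4:4. The 2 groups with a 4:2 conduit lay above the other 2 without overlap in this share. These shares are of counts, not per length, so they compare samples and not classes. In whole stumps, fewer cells of a type and less RNA per cell cannot be told apart.

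**Figure D1:**
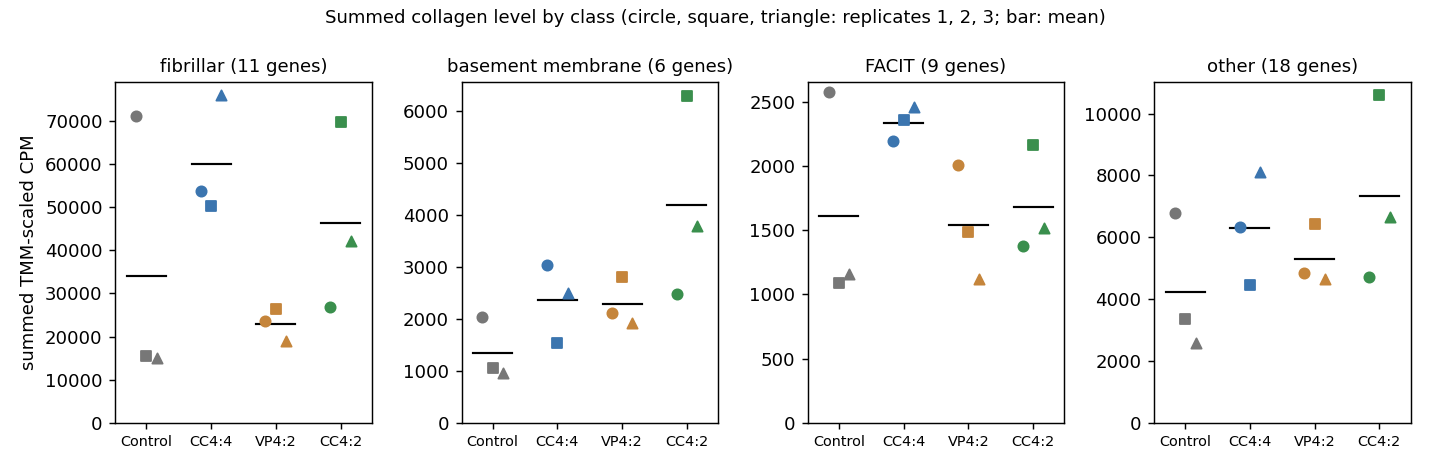
Summed TMM-scaled CPM (y axis, linear from 0) of the collagen genes of each class in each of the 12 samples, by group; circle, square and triangle are replicates 1, 2 and 3, and bars are group means. Control replicate 1 holds 71160 CPM of fibrillar collagen RNA, far above the other 2 controls.

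With all 12 samples in the fit, CC4:2 stumps held more RNA of type IV collagen and of several minor chains than Control. The major fibrillar chains were not called in that fit, but rose without Control replicate 1, a library set apart in part by its own collagen counts. Of 42 genes tested 15 rose and 1 fell (38.1%), against 43.5% of all genes tested (20.3% higher and 23.2% lower). The share called in either direction is thus no larger than the background with all 12 samples, but nearly all of the calls were rises. The median over the 42 was 0.82 against -0.04 over all genes. By class, 5 of 6 type IV, 1 of 11 fibrillar, 2 of 9 FACIT and 7 of 16 other genes rose, and 1 of the others fell. The groups did not overlap in 18 of the 42 (17 higher), against 49.3% of all genes (23.5% higher and 25.8% lower). Without Control replicate 1, 25 of 42 rose and 1 fell, a larger share than the 45.3% called over all genes in that fit (22.3% higher and 23% lower). The 26 included all 16, the same 5 type IV genes and Col2a1 among them. They also held the fibrillar genes Col1a1, Col1a2, Col3a1, Col5a1, Col5a2, Col5a3 and Col27a1, so the contrast between these classes depended on that library. In the NovaSeq samples alone (replicates 1 and 2 of each group) 7 of 43 rose and 0 fell, against 20.4% of all genes (9.61% higher and 10.8% lower), and 6 of those 7 were among the 16. Control replicate 1 is 1 of the 2 controls in that fit. The DNBSEQ-T7 platform read 1 sample per group, which allows no test.

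**Figure D2:**
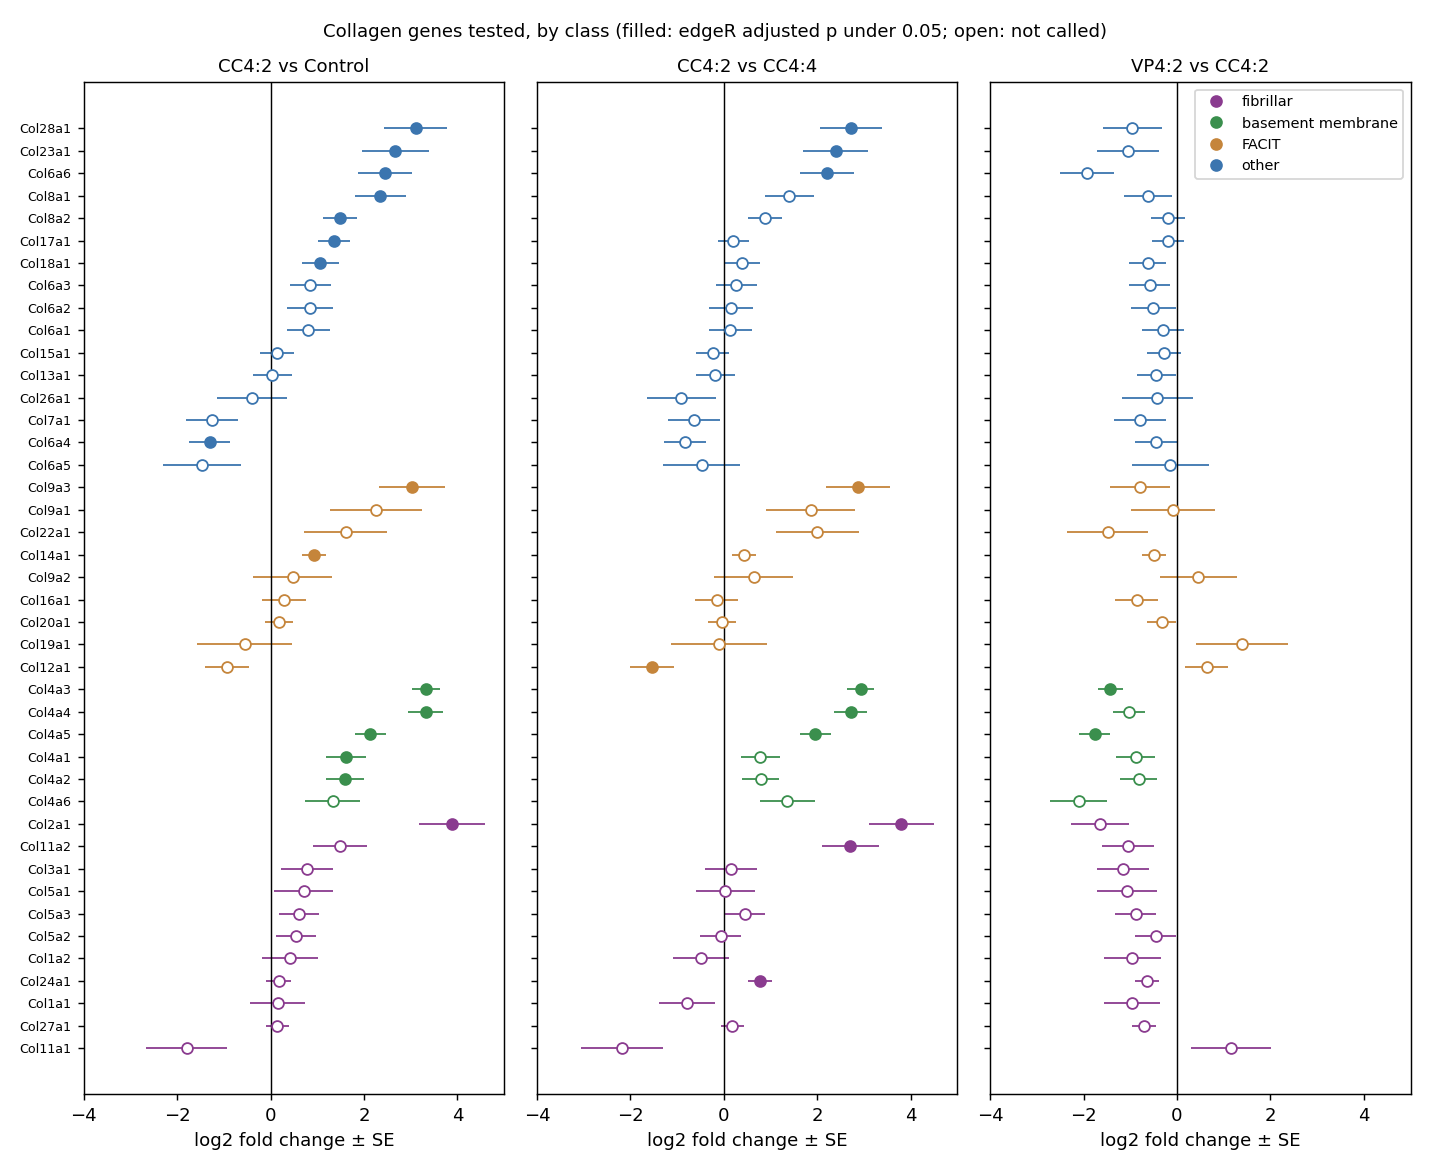
Log2 fold change ± SE (x axis) of the 42 collagen genes tested, in rows by class, for 3 comparisons; filled points passed an edgeR adjusted p under 0.05 and open points did not. Filled points lie to the right in the first 2 panels, except for Col6a4 and Col12a1, and the 2 filled points of VP4:2 against CC4:2 are the type IV genes Col4a3 and Col4a5.

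The fibrillar chains of the major fibrils showed the spread between controls most plainly. Col1a1 stood at 8595, 24778 and 13355 CPM in CC4:2, at 8433, 9435 and 6007 in VP4:2, at 24391, 23366 and 33137 in CC4:4 and at 29431, 6121 and 6442 in Control; it encodes the alpha 1 chain of type I collagen, the main fibril of scar and epineurium. Control replicate 1 was among the highest of all 12 samples and the other 2 controls among the lowest, so Control overlapped each other group. The difference from Control was 0.15 ± 0.59, adjusted p = 0.85 in CC4:2 and 0.95 ± 0.60, adjusted p = 0.96 in CC4:4. Without Control replicate 1 these became 1.32 ± 0.41, adjusted p = 0.025 and 2.10 ± 0.43, adjusted p = 0.043.

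Col1a2 stood at 6591, 15657 and 9047 CPM in CC4:2, at 5774, 6365 and 4007 in VP4:2, at 12619, 12130 and 18975 in CC4:4 and at 16881, 3259.6 and 3316 in Control, and it encodes the other chain of type I. Its pattern over samples was that of Col1a1, with 0.42 ± 0.60, adjusted p = 0.6 in CC4:2 against Control and 1.67 ± 0.39, adjusted p = 0.0062 without Control replicate 1. Col3a1 stood at 9684, 24722 and 16856 CPM in CC4:2, at 7282, 8348 and 7408 in VP4:2, at 13530, 12270 and 20051 in CC4:4 and at 20468, 5056 and 4236 in Control; type III is the pliable fibril of granulation tissue and endoneurium. CC4:2 against Control gave 0.78 ± 0.56, adjusted p = 0.28, and 1.89 ± 0.38, adjusted p = 0.0032 without Control replicate 1. The 3 VP4:2 stumps lay below the 3 CC4:2 stumps, but VP4:2 against CC4:2 was not called (-1.15 ± 0.56, adjusted p = 0.26).

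Type V nucleates type I fibrils and limits their width. Col5a1 stood at 491, 1660.2 and 846 CPM in CC4:2, at 498, 605 and 324 in VP4:2, at 1116, 719.7 and 1101 in CC4:4 and at 1329.8, 254 and 254 in Control. Col5a2 stood at 973, 1827 and 1365 CPM in CC4:2, at 1115, 1080.2 and 842 in VP4:2, at 1334, 1198 and 1827 in CC4:4 and at 1771, 558 and 529 in Control. Of the controls, replicate 1 stood with the highest samples and the other 2 below every conduit stump. Col5a1 was at 0.70 ± 0.64, adjusted p = 0.4 and Col5a2 at 0.54 ± 0.44, adjusted p = 0.34 in CC4:2 against Control, and at 1.98 ± 0.48, adjusted p = 0.0082 and 1.36 ± 0.29, adjusted p = 0.0041 without Control replicate 1. In CC4:4 without that control, Col5a2 rose (1.42 ± 0.29, adjusted p = 0.043) and Col5a1 was not called (1.95 ± 0.48, adjusted p = 0.071). With all 12 samples Col5a2 was at 0.61 ± 0.44, adjusted p = 0.97 and Col5a1 at 0.68 ± 0.64, adjusted p = 0.98 in CC4:4. The third type V chain gene, Col5a3, which Schwann cells also make, was at 0.61 ± 0.43, adjusted p = 0.28 in CC4:2 against Control and at 1.41 ± 0.30, adjusted p = 0.0041 without Control replicate 1.

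Col11a1 stood at 26.2, 67.1 and 50.8 CPM in CC4:2, at 146, 109.8 and 64.3 in VP4:2, at 157, 259 and 238 in CC4:4 and at 434, 31.3 and 35.0 in Control. It encodes a type XI chain, which nucleates fibrils with type V in cartilage and in scar-forming fibroblasts. CC4:2 lay below CC4:4 without overlap, but no comparison of the 12 samples called the gene (-2.18 ± 0.88, adjusted p = 0.07 for CC4:2 against CC4:4, and -1.80 ± 0.87, adjusted p = 0.12 against Control). Without Control replicate 1, CC4:4 rose over Control (2.72 ± 0.46, adjusted p = 0.031, from 0.39 with all samples). VP4:2 rose there too (1.69 ± 0.44, adjusted p = 0.02, from -0.65 with all samples) and CC4:2 was at 0.54 ± 0.42, adjusted p = 0.31. In that fit CC4:2 fell against CC4:4 (-2.18 ± 0.38, adjusted p = 0.0015), although the library left out is in neither group.

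Among fibrillar genes, Col2a1 rose in CC4:2 with all 12 samples in the fit. Col2a1 stood at 20.0, 16.9 and 22.9 CPM in CC4:2, at 6.80, 8.65 and 3.62 in VP4:2, at 1.99, 0.542 and 1.71 in CC4:4 and at 0.169, 2.26 and 1.70 in Control; it encodes type II, the fibril of cartilage. CC4:2 lay above every other stump and VP4:2 next (3.89 ± 0.70, adjusted p = 0.0016 for CC4:2 against Control, 3.80 ± 0.69, adjusted p = 0.002 against CC4:4, and 2.24 ± 0.68, adjusted p = 0.042 for VP4:2 against Control, lost in 14 of 21 other fits). Without Control replicate 1 the first was 3.33 ± 0.52, adjusted p = 0.00085. The 8 cartilage and bone markers, among them the cartilage proteoglycan gene Acan, summed to 30.9 to 71.7 CPM in CC4:2 and 37.7 to 97.0 in Control. Of 7 tested 0 rose and 2 fell, where 20.3% of all genes rose and 23.2% fell. Col11a2 stood at 7.78, 5.19 and 4.12 CPM in CC4:2, at 2.25, 4.24 and 1.73 in VP4:2, at 1.23, 0.949 and 0.410 in CC4:4 and at 0.619, 2.89 and 2.67 in Control. This second type XI chain gene rose in CC4:2 against CC4:4 (2.70 ± 0.61, adjusted p = 0.006) and was not called against Control (1.48 ± 0.58, adjusted p = 0.058). Col24a1, a minor fibrillar chain, rose by a small amount in CC4:2 against CC4:4 (0.78 ± 0.26, adjusted p = 0.036), a call lost with each of the 6 samples compared left out in turn (adjusted p up to 0.11). The remaining gene, Col27a1, was at 0.14 ± 0.25, adjusted p = 0.67 in CC4:2 against Control and rose without Control replicate 1 (0.52 ± 0.19, adjusted p = 0.048).

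**Figure D3:**
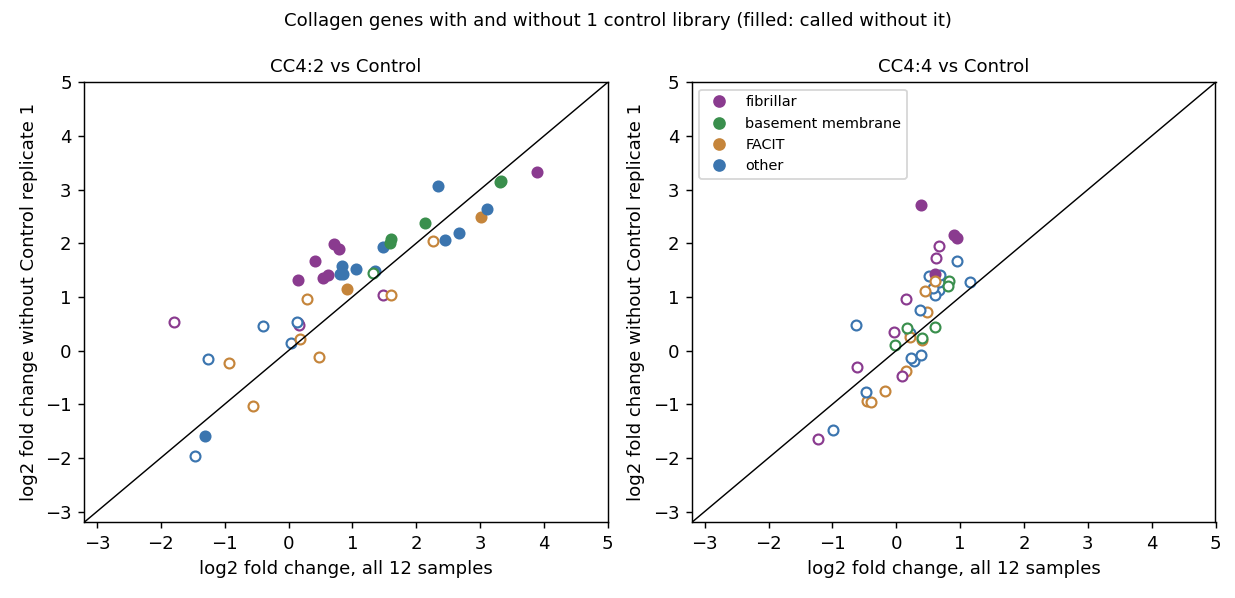
Log2 fold change of each collagen gene against Control with all 12 samples (x axis) and without Control replicate 1 (y axis), for CC4:2 and CC4:4; the line marks equal values and filled points were called without that sample. In each panel 9 of 11 fibrillar genes lie above the line, and Col2a1 and Col11a2 below it, with Col1a1 at 0.15 and 1.32 for CC4:2.

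Of the 6 type IV genes 5 rose in CC4:2 against Control, to different degrees by pair. Col4a1 stood at 1349, 3552 and 2063 CPM in CC4:2, at 1163, 1549 and 1056 in VP4:2, at 1746, 887 and 1424 in CC4:4 and at 1181, 576 and 528 in Control. Col4a2 stood at 971, 2481 and 1563 CPM in CC4:2, at 877, 1161 and 800.0 in VP4:2, at 1242, 626 and 1038 in CC4:4 and at 822, 436 and 405 in Control. These 2 genes encode the chains of the common basement membrane trimer of vessels, fat and Schwann cells. Both rose in CC4:2 against Control (1.61 ± 0.43, adjusted p = 0.011 and 1.59 ± 0.40, adjusted p = 0.0091; 2.08 and 2.00 without Control replicate 1), with no overlap between the groups, as did 49.3% of all genes in that comparison. They were not called in the NovaSeq samples alone (adjusted p = 0.12 and 0.11), in CC4:2 against CC4:4 (0.78 ± 0.42, adjusted p = 0.16 for Col4a1) or in VP4:2 against CC4:2 (-0.89 ± 0.42, adjusted p = 0.24 for Col4a1).

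The pair Col4a3 and Col4a4 encodes chains of a second trimer, best known from the kidney glomerulus. Col4a3 stood at 20.9, 29.0 and 18.2 CPM in CC4:2, at 7.07, 10.7 and 7.52 in VP4:2, at 3.87, 2.24 and 2.80 in CC4:4 and at 1.74, 2.65 and 2.42 in Control. Col4a4 stood at 95.0, 142 and 95.4 CPM in CC4:2, at 45.5, 73.1 and 45.1 in VP4:2, at 23.9, 10.7 and 15.9 in CC4:4 and at 8.38, 16.2 and 8.72 in Control. The order was the same for both: CC4:2 highest, VP4:2 next, and Control and CC4:4 lowest and overlapping. Both rose in CC4:2 against Control (3.32 ± 0.30, adjusted p = 4.4e-05 and 3.32 ± 0.37, adjusted p = 0.00014) and against CC4:4 (2.93 ± 0.29, adjusted p = 0.00011 and 2.71 ± 0.36, adjusted p = 0.00043), and both kept these calls in all 21 other fits, those with a library left out and with NovaSeq samples alone included. Both rose in VP4:2 against Control (1.90 ± 0.29, adjusted p = 0.0041 and 2.30 ± 0.36, adjusted p = 0.0046).

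In VP4:2 against CC4:2, Col4a3 fell by 1.43 on the log2 scale (SE 0.27, adjusted p = 0.011). The fall was not called without VP4:2 replicate 1 (adjusted p = 0.057) or 3 (0.062), or in the NovaSeq samples (0.17). Col4a4 was not called there (-1.02 ± 0.34, adjusted p = 0.11), although its groups did not overlap.

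The third pair is X-linked, and Col4a5 joins Col4a3 and Col4a4 in their trimer. Col4a5 stood at 39.8, 82.4 and 55.9 CPM in CC4:2, at 18.0, 17.4 and 17.0 in VP4:2, at 19.2, 14.9 and 11.6 in CC4:4 and at 17.4, 15.4 and 7.67 in Control. Here VP4:2 lay at the level of Control and CC4:4, and all 3 groups were below CC4:2. CC4:2 rose over Control (2.13 ± 0.33, adjusted p = 0.00069) and over CC4:4 (1.96 ± 0.33, adjusted p = 0.0013), and VP4:2 fell against CC4:2 (-1.76 ± 0.33, adjusted p = 0.0094), a call held with each library left out (adjusted p at most 0.049), while the NovaSeq samples gave 0.073. VP4:2 against Control was 0.37 ± 0.32, adjusted p = 0.45. Col4a6 stood at 2.01, 1.75 and 1.46 CPM in CC4:2, at 0.658, 0.430 and 0.108 in VP4:2, at 0.997, 0.813 and 0.205 in CC4:4 and at 0.787, 0.625 and 0.646 in Control, levels near the filter of 0.589 CPM, and the fit of 12 samples called it in no comparison (-2.11 ± 0.61, adjusted p = 0.07 for VP4:2 against CC4:2). With the replicate number as a block, VP4:2 against CC4:2 was called for Col4a6 (-2.27 ± 0.53, adjusted p = 0.042).

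**Figure D4:**
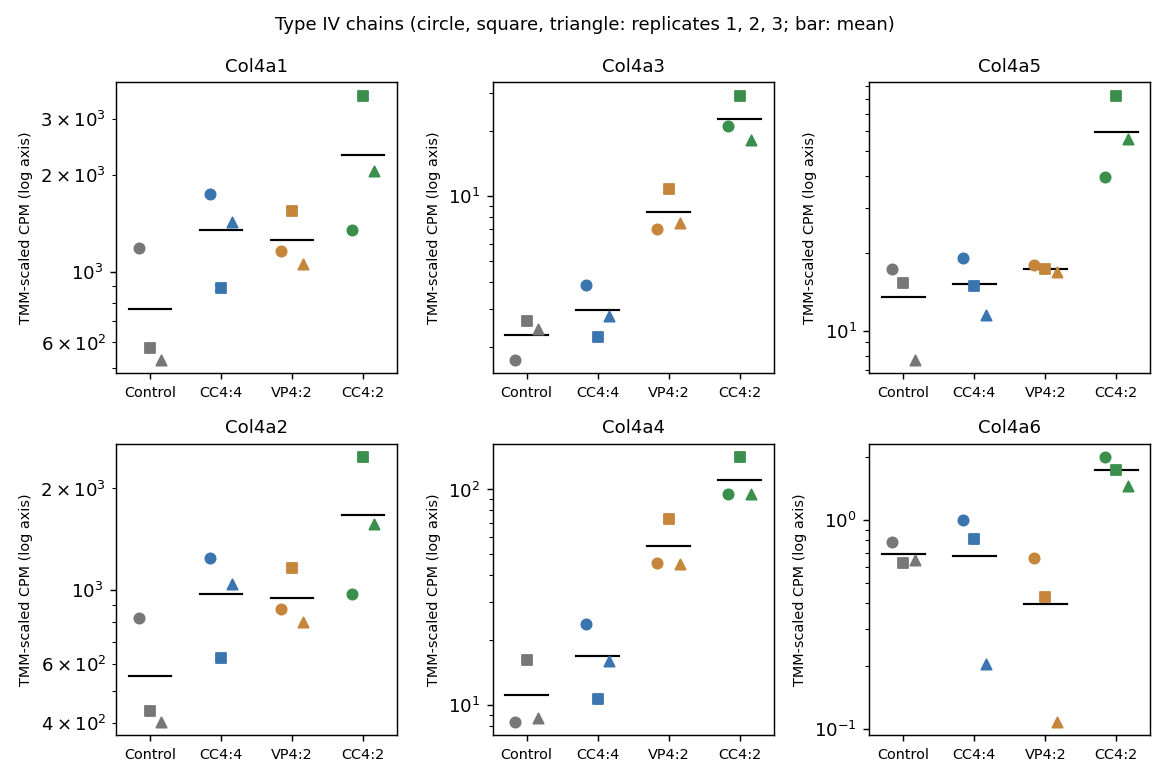
TMM-scaled CPM (log axis) of the 6 type IV genes in each sample by group, with paired genes above one another, circle, square and triangle for replicates 1, 2 and 3, and bars at group means. Col4a3 and Col4a4 step from CC4:2 through VP4:2 to Control and CC4:4, whereas Col4a5 in VP4:2 (18.0, 17.4 and 17.0 CPM) sits with Control and CC4:4.

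Among FACIT genes, calls went in both directions. Col14a1 stood at 706, 1014 and 717 CPM in CC4:2, at 596, 601 and 534 in VP4:2, at 561, 460.4 and 778 in CC4:4 and at 552, 429 and 304 in Control; its product decorates mature fibrils in the nerve sheath. It rose in CC4:2 against Control (0.92 ± 0.26, adjusted p = 0.016), a call lost in 4 of 21 other fits, that without CC4:2 replicate 2 among them (adjusted p = 0.059). Col12a1 stood at 361, 542 and 504 CPM in CC4:2, at 1183, 583 and 419 in VP4:2, at 1228, 1624 and 1227 in CC4:4 and at 1570.0, 455 and 657 in Control, and its product is a fibril surface protein of tissue under load and of scar. CC4:2 lay below CC4:4 in every sample (-1.54 ± 0.48, adjusted p = 0.026), and the call was lost without any 1 of the CC4:2 samples (0.084, 0.053 and 0.058) or CC4:4 replicate 2 (0.079). Against Control the gene was not called (-0.93 ± 0.47, adjusted p = 0.13, and -0.24 ± 0.39, adjusted p = 0.64 without Control replicate 1).

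Col9a3 stood at 73.3, 58.8 and 35.7 CPM in CC4:2, at 30.6, 41.8 and 23.9 in VP4:2, at 7.80, 10.6 and 4.45 in CC4:4 and at 0.900, 13.4 and 6.54 in Control. The gene encodes a type IX chain, which coats cartilage fibrils. CC4:2 and VP4:2 lay above all other stumps (3.02 ± 0.70, adjusted p = 0.0059 for CC4:2 against Control and 2.87 ± 0.69, adjusted p = 0.0082 against CC4:4). VP4:2 rose over Control (2.22 ± 0.68, adjusted p = 0.045), a call lost without any 1 of 10 of the 12 libraries (adjusted p up to 0.13). The partner chain genes were low, at 0.156 to 4.87 CPM for Col9a1 and 0.0562 to 3.55 for Col9a2, and the fit of 12 samples called neither, while the NovaSeq samples alone called Col9a1 in CC4:2 against Control (3.80, adjusted p = 0.0076). Col22a1, found at tissue junctions, was at 6.99, 11.3 and 7.52 CPM in CC4:2 and at most 5.16 elsewhere, and was not called (1.60 ± 0.88, adjusted p = 0.16 against Control). Col16a1, Col19a1 and Col20a1 were not called in any comparison.

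Type VI filaments did not separate the groups in their common chains. Col6a1 stood at 1195, 2758 and 1782 CPM in CC4:2, at 1450.0, 1824 and 1403 in VP4:2, at 1357, 1248 and 2589 in CC4:4 and at 1854, 848 and 576 in Control. Col6a2 stood at 1049, 2602 and 1538 CPM in CC4:2, at 1101, 1459.8 and 1082 in VP4:2, at 1343, 1100.3 and 2221 in CC4:4 and at 1726, 698 and 474 in Control. Col6a3 stood at 858, 2454 and 1611 CPM in CC4:2, at 930.0, 1331 and 1017 in VP4:2, at 1526, 983 and 1569.7 in CC4:4 and at 1506, 626 and 596 in Control. The groups overlapped in all 5 comparisons for each of the 3 genes. In CC4:2 against Control the 3 genes were at 0.81, 0.84 and 0.85 (adjusted p = 0.17, 0.18 and 0.14), and without Control replicate 1 all 3 rose (1.43 ± 0.41, adjusted p = 0.018 for Col6a1, and 1.57 and 1.43 for the others). Col6a6 stood at 107, 161 and 153 CPM in CC4:2, at 25.1, 37.6 and 47.8 in VP4:2, at 49.1, 10.2 and 31.0 in CC4:4 and at 10.2, 43.3 and 23.8 in Control; it encodes a chain that can stand in for that of Col6a3. Col6a6 rose in CC4:2 against Control (2.45 ± 0.58, adjusted p = 0.0069) and against CC4:4 (2.22 ± 0.58, adjusted p = 0.012), and VP4:2 lay below CC4:2 in every sample without being called (-1.93 ± 0.57, adjusted p = 0.076). Col6a4 fell in CC4:2 against Control (-1.30 ± 0.44, adjusted p = 0.034) at 0.325 to 1.80 CPM over the 12 samples, a call lost in 11 of 21 other fits. Col6a5 was at 309 CPM in Control replicate 2 and at most 77.8 in the others, and was not called.

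Col28a1 encodes a von Willebrand domain collagen that in the nerve is laid down around glial cells. Col28a1 stood at 179, 123 and 86.9 CPM in CC4:2, at 67.3, 78.4 and 55.4 in VP4:2, at 33.6, 9.01 and 16.4 in CC4:4 and at 3.77, 30.8 and 11 in Control. The 4:2 conduit groups lay above all Control and CC4:4 stumps, and CC4:2 above VP4:2. It rose in CC4:2 against Control (3.10 ± 0.68, adjusted p = 0.0045; 2.63 ± 0.60, adjusted p = 0.0056 without Control replicate 1) and against CC4:4 (2.72 ± 0.67, adjusted p = 0.0091), while VP4:2 against CC4:2 was -0.95 ± 0.63, adjusted p = 0.41. VP4:2 rose over Control (2.15 ± 0.66, adjusted p = 0.044), a call lost in 13 of 21 other fits, that without Control replicate 1 among them (1.69 ± 0.57, adjusted p = 0.053). The 10 Schwann cell markers moved with these genes: they summed to 12610 to 33018 CPM in CC4:2 and 11427 to 17358 in VP4:2, against 343 to 4264 in Control and 2379 to 3143 in CC4:4, and all 10 rose in CC4:2 against Control. Their part in the collagen results was not tested.

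Type VIII collagen is a short-chain network former of vessel walls. Col8a1 stood at 72.6, 277 and 154 CPM in CC4:2, at 130.3, 126 and 73.5 in VP4:2, at 84.0, 51.0 and 55.9 in CC4:4 and at 58.5, 21.8 and 18.3 in Control. Col8a2 stood at 155, 147 and 82.6 CPM in CC4:2, at 106, 144 and 84.9 in VP4:2, at 54.6, 58.6 and 95.6 in CC4:4 and at 70.1, 37.2 and 30.3 in Control. The 2 controls other than replicate 1 were the lowest of all samples for both genes. Both rose in CC4:2 against Control (2.35 ± 0.54, adjusted p = 0.0057 and 1.48 ± 0.37, adjusted p = 0.0084), more so without Control replicate 1 (3.07 and 1.93). Both also rose in VP4:2 against Control (1.74 ± 0.53, adjusted p = 0.043 and 1.28 ± 0.37, adjusted p = 0.034), the first call lost without any 1 of 9 libraries but kept without Control replicate 1 (2.46 ± 0.53, adjusted p = 0.0093), and the second without any 1 of 4. Neither was called between VP4:2 and CC4:2 (adjusted p = 0.52 and 0.79).

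The multiplexins Col15a1 and Col18a1 lie in and beside basement membranes, and the latter carries the endostatin fragment. Col15a1 stood at 598, 1069 and 628 CPM in CC4:2, at 602, 794 and 502 in VP4:2, at 1184, 613 and 909 in CC4:4 and at 1018, 462 and 606 in Control. Col18a1 stood at 425, 933 and 569 CPM in CC4:2, at 380.1, 519 and 348 in VP4:2, at 618, 312 and 540.2 in CC4:4 and at 469.9, 256 and 196 in Control. The groups overlapped for both. Col15a1 was not called in any comparison (0.14 ± 0.36, adjusted p = 0.78 for CC4:2 against Control), and Col18a1 passed by a narrow margin in CC4:2 against Control (1.06 ± 0.39, adjusted p = 0.048), a call lost in 13 of 21 other fits (adjusted p up to 0.19 with a library left out) and kept without Control replicate 1 (1.51 ± 0.39, adjusted p = 0.01).

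Of the transmembrane collagens, Col23a1 rose in CC4:2 against Control (2.67 ± 0.72, adjusted p = 0.012) and against CC4:4 (2.39 ± 0.70, adjusted p = 0.02), from 0.506, 2.19 and 2.99 CPM in Control to 14.8, 16.3 and 4.44 in CC4:2. Against CC4:4 leaving out CC4:2 replicate 1 or 2, or replicate 1 or 3 of CC4:4, ended the call (adjusted p = 0.054, 0.062, 0.065 and 0.072). Col17a1, the hemidesmosome collagen of epithelia, stood at 4.61, 3.90 and 3.39 CPM in Control and 6.16 to 14.1 in the conduit groups. It rose in CC4:2 (1.36 ± 0.35, adjusted p = 0.0096) and VP4:2 (1.17 ± 0.35, adjusted p = 0.04, lost in 12 of 21 other fits), and in CC4:4 its groups did not overlap but it was not called (1.16 ± 0.35, adjusted p = 0.93). Col7a1, which makes anchoring fibrils, fell in VP4:2 against Control (-2.04 ± 0.57, adjusted p = 0.032). Control replicate 1 was at 24.9 CPM, and without it the value was -0.94 ± 0.38, adjusted p = 0.088, and the call was also lost without any 1 of the VP4:2 samples (adjusted p up to 0.11). Col13a1 and Col26a1 were not called in any comparison.

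In CC4:4 against Control 0 of 42 genes were called, as were 0 of all genes tested (0%), with 2 of the 42 and 831 of all genes at an unadjusted p under 0.05. The groups did not overlap in 1 gene, Col17a1, against 7.42% of all genes (3.12% higher and 4.3% lower). DESeq2 called 0 of the 42 and 10 of all genes (0.0636%, with 0.0318% in each direction). The median over the 42 was 0.39 against -0.01 over all genes. Without Control replicate 1, 4 genes rose, all fibrillar (Col1a1, Col1a2, Col5a2 and Col11a1), against 1.85% of all genes (0.864% higher and 0.989% lower). In that fit Col1a2 was at 2.15 ± 0.40, adjusted p = 0.037, from 12619, 12130 and 18975 CPM in CC4:4 and 3259.6 and 3316 in the other 2 controls, whereas Control replicate 1 was at 16881. With all 12 samples Col1a2 was at 0.90 ± 0.60, adjusted p = 0.97.

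The conduits were then compared with each other. In CC4:2 against CC4:4, 10 genes were higher and 1 lower of 42 (26.2%), against 39.2% of all genes (18.5% higher and 20.7% lower). The groups did not overlap in 15 of the 42 (12 higher and 3 lower), against 53.1% of all genes (25.1% higher and 28% lower). Those higher were Col2a1, Col11a2 and Col24a1, the type IV genes Col4a3, Col4a4 and Col4a5, Col9a3, Col6a6, Col23a1 and Col28a1, and the gene that was lower was Col12a1. The main chains of types I, III, V and VI were not called, with Col1a1 at -0.79 ± 0.60, adjusted p = 0.32 and Col3a1 at 0.16 ± 0.56, adjusted p = 0.84. The NovaSeq samples alone called 7 of 43, all higher, against 20.6% of all genes (9.03% higher and 11.6% lower), 5 of them among the 11. With Control replicate 1, which is in neither group, left out of the fit, 13 were higher and 2 lower, against 45.2% of all genes (21.3% higher and 23.9% lower).

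Verteporfin loading was compared with the unloaded 4:2 conduit. Of 42 genes 2 fell and 0 rose (4.76%), against 6.23% of all genes (5.23% higher and 0.999% lower). The fold change was below 0 in 38 of the 42, with a median of -0.67 against -0.03 over all genes, and the groups did not overlap in 14, all lower in VP4:2, against 32.2% of all genes (17.5% higher and 14.6% lower). By class the medians were -0.95 for fibrillar, -1.22 for type IV, -0.33 for FACIT and -0.48 for other genes. The genes without overlap included Col1a2 (-0.95 ± 0.60, adjusted p = 0.39) and Col3a1 among the fibrils. With that control left out of the fit, Col27a1, Col6a6 and Col2a1 fell as well, 5 genes in all, against 9.36% of all genes (7.1% higher and 2.27% lower). In the NovaSeq samples 0 of 43 were called by edgeR, against 1.28% of all genes (1.23% higher and 0.0506% lower), and DESeq2 called 5 of 42 with all samples, against 11.8% of all genes (8.39% higher and 3.45% lower). A replicate block called 3, Col4a3, Col4a5 and Col4a6, all lower, against 5.43% of all genes (4.76% higher and 0.668% lower). Verteporfin-loaded stumps also held more macrophage marker counts (4166 to 5197 CPM over 8 markers against 1225 to 1474 in CC4:2), 4 of 8 markers being higher, as were 3 of 5 T and NK cell markers. Perineurial markers summed to 1723 to 2322 CPM in VP4:2 and, without overlap, to 4097 to 4729.6 in CC4:2, with 0 of 5 called by edgeR. The part of these shifts in the collagen values was not tested.

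In VP4:2 against Control, 8 genes rose and 2 fell of 42 (23.8%), against 18.9% of all genes (9.3% higher and 9.57% lower). The 8 were Col2a1, Col4a3, Col4a4, Col9a3, Col8a1, Col8a2, Col17a1 and Col28a1, and the 2 were Col6a4 and Col7a1. The groups did not overlap in these 10 genes, against 38.6% of all genes (19.8% higher and 18.8% lower). With each library left out in turn, 2 of the 10 kept their call throughout, Col4a3 and Col4a4, and the NovaSeq samples alone called 0 of 43, against 0.12% of all genes (0.0127% higher and 0.108% lower). In the fit without Control replicate 1, 9 rose and 1 fell, against 26.9% of all genes (13.2% higher and 13.7% lower).

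Ratios between chains within a sample set 1 chain against another whatever the stump's total, and 14 were computed. They were compared by exact two-sided permutation tests of 3 against 3 samples, which cannot go below p = 0.1. After Benjamini-Hochberg adjustment over the 14 ratios of a comparison, no p was below 0.2. The groups did not overlap in 4 ratios for CC4:2 against Control, 2 for CC4:4 against Control, 5 for VP4:2 against CC4:2, 6 for CC4:2 against CC4:4 and 7 for VP4:2 against Control. The log2 ratio of Col1a1 to Col1a2 was 0.38, 0.66 and 0.56 in CC4:2 and 0.55, 0.57 and 0.58 in VP4:2, and higher without overlap at 0.95, 0.95 and 0.80 in CC4:4 and 0.80, 0.91 and 0.96 in Control. CC4:2 differed from Control by -0.35 and from CC4:4 by -0.36 (exact p = 0.1 each, adjusted p = 0.35 and 0.233), while VP4:2 and CC4:2 overlapped.

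The log2 ratio of Col3a1 to Col1a1 was -0.85, -0.93 and -0.72 in CC4:4, at its lowest, then -0.52, -0.28 and -0.60 in Control, -0.21, -0.18 and 0.30 in VP4:2 and 0.17, -0.0032 and 0.34 in CC4:2. CC4:4 lay lowest, Control next and both 4:2 groups above, with VP4:2 and CC4:2 overlapping. CC4:2 exceeded CC4:4 by 1.00, and Control exceeded CC4:4 by 0.37 (exact p = 0.1 each, adjusted p = 0.233 and 0.7). That of Col11a1 to Col5a1 was -4.22, -4.63 and -4.06 in CC4:2 and between -3.01 and -1.48 in the 9 other stumps. VP4:2 lay 2.12 above CC4:2 (exact p = 0.1, adjusted p = 0.28).

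The Col4a1 to Col4a2 ratio was the steadiest of the 14, at 0.383 to 0.522 over the 12 stumps, while Col4a1 itself ran from 528 to 3552 CPM. The Col4a3 to Col4a4 ratio ran from -2.75 to -1.80, and Col4a5 to Col4a6, with few counts of the latter, from 3.35 to 6.23. The Col4a5 to Col4a1 ratio was -5.08, -5.43 and -5.20 in CC4:2 and -6.01, -6.47 and -5.95 in VP4:2, a difference of -0.91 (exact p = 0.1, adjusted p = 0.28), and 1 control also reached the CC4:2 range.

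**Figure D5:**
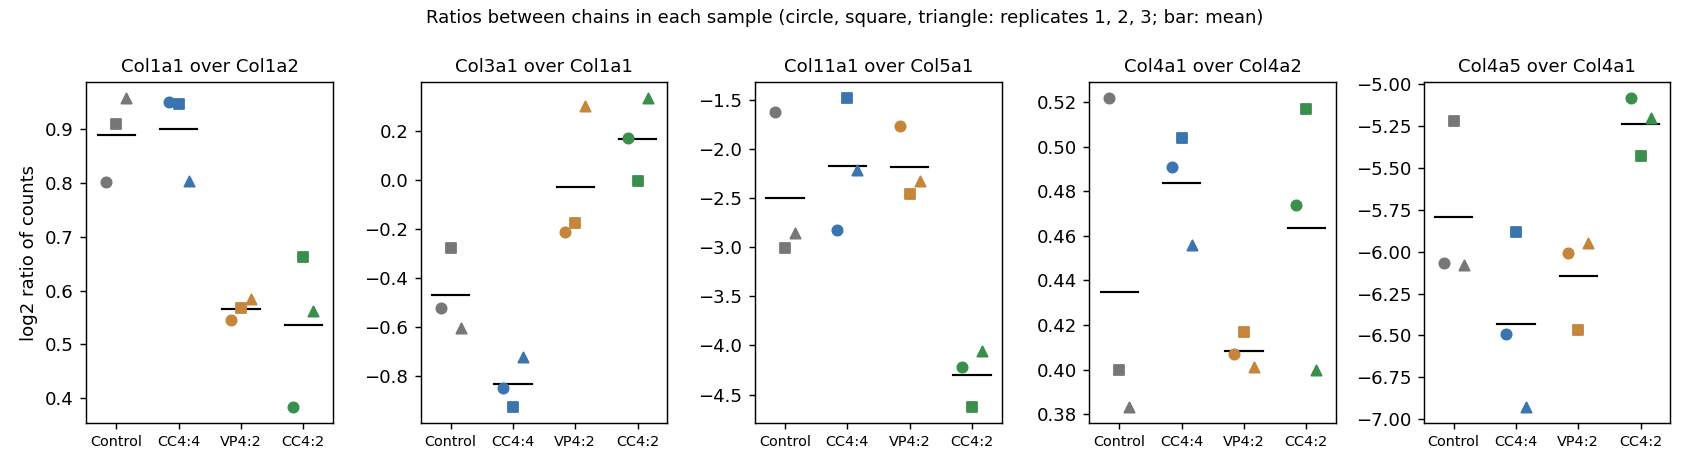
Log2 ratio of counts between 2 chains (y axis, a separate scale in each panel) in each sample by group; circle, square and triangle are replicates 1, 2 and 3, and bars are group means. Col1a1 over Col1a2 and Col3a1 over Col1a1 part the 4:2 groups from Control and CC4:4, and Col11a1 over Col5a1 is lowest in the 3 CC4:2 stumps.

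Genes that modify, process and bind collagen were taken from 5 lists. Of 15 genes for hydroxylation and glycosylation of the chains, 2 rose and 4 fell in CC4:2 against Control, a share close to the 43.5% called among all genes, with a median of -0.38. Those that rose were P3h2, a prolyl 3-hydroxylase with a preference for type IV chains (2.07 ± 0.41, adjusted p = 0.0026), and Colgalt2, a collagen galactosyltransferase (2.25 ± 0.50, adjusted p = 0.0047). Those that fell were P4hb, the beta subunit of prolyl 4-hydroxylase (-0.80 ± 0.20, adjusted p = 0.0087), Ppib, Plod2 and P4ha3. Plod2 hydroxylates telopeptide lysines for cross-links (-2.09 ± 0.57, adjusted p = 0.013). In VP4:2 against CC4:2 none (0) of the 15 was called, by edgeR at an adjusted p under 0.05.

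Of 7 chaperone and secretion genes Mia2 fell in CC4:2 (-0.99 ± 0.21, adjusted p = 0.0043) and Serpinh1, the collagen chaperone HSP47, was at -0.01 ± 0.52, adjusted p = 0.99. Of 7 procollagen processing genes tested 2 rose and 1 fell, again close to the share of all genes: Tll1, a C-propeptide protease (1.62 ± 0.16, adjusted p = 6.2e-05), and Adamts2, an N-propeptide protease (1.02 ± 0.28, adjusted p = 0.013), rose, and Adamts3, its paralog, fell (-2.11 ± 0.34, adjusted p = 0.00086). Of 5 lysyl oxidases, the cross-linking enzymes, Loxl3 rose (0.80 ± 0.18, adjusted p = 0.0059) and Lox was at -0.49 ± 0.47, adjusted p = 0.42.

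Of 11 receptor and uptake genes 6 rose in CC4:2 against Control, where 20.3% of all genes rose, with a median of 0.94 against -0.04 over all genes. They included Itga1, the integrin subunit that binds type IV (1.53 ± 0.21, adjusted p = 0.00039), Ddr2, a receptor kinase for fibrillar collagen (1.14 ± 0.16, adjusted p = 0.00045), and Ddr1, its epithelial and glial relative (1.95 ± 0.33, adjusted p = 0.001). The others were Itga2, Adgrg1, a receptor for type III, and Adgrg6, a Schwann cell receptor that binds type IV and is needed for myelination (1.95 ± 0.40, adjusted p = 0.0029). In VP4:2 against CC4:2, Ddr2 fell (-0.83 ± 0.16, adjusted p = 0.013), the 1 gene called in these 5 lists in that comparison. In CC4:4 against Control none (0) of the 5 lists' genes was called by edgeR.

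Markers of other cells moved with the groups as well. Summed CPM of 10 nerve fibroblast markers, among them Pdgfra and Dcn, was 4100.3 to 4959 in CC4:2, 3376 to 3877 in VP4:2, 3419.9 to 5057 in CC4:4 and 2069 to 5766 in Control, and 7 of the 10 rose in CC4:2 against Control. Control replicate 1 was the highest of all samples, at 5766. Endothelial markers (6 genes) summed to 541 to 1054 in Control and 946 to 1464 in CC4:2 with 2 of 6 higher, adipocyte markers to 201 to 394 and 819.8 to 2066 with 6 of 6 higher, and perineurial markers to 474 to 944 and 4097 to 4729.6 with 4 of 5 tested higher and 1 lower. Pericyte markers had 3 of 6 higher, and of 5 smooth muscle markers and 5 skeletal muscle markers 0 were called by edgeR. Of all genes tested in CC4:2 against Control 20.3% rose and 23.2% fell, shares that a count such as 2 of 6 does not clearly exceed. Neutrophil markers (1 higher and 4 lower of 5), macrophage markers (5 lower of 8), T and NK cell markers (5 lower of 5) and B and plasma cell markers (5 lower of 5) went mostly down. The part of these shifts in the collagen values was not tested.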

How the data were processed

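Poly(A) RNA of 12 stumps was made into stranded paired-end libraries of 150-base reads, 8 on a NovaSeq X Plus and 4 (replicate 3 of each group) on a DNBSEQ-T7, per the labels. The authors deposited expected counts for each gene, and nothing records a normalization. DESeq2, HISAT2, RSEM and StringTie are named in the submitters' processing notes, per the labels. Their versions and roles, the genome build, annotation and strand setting are not given in the sources used here. All 12 deposited files held 1 identical table, so 11 were not used. Between 9.44% and 11.12% of values in a sample were not whole, and all were rounded. The main test was the quasi-likelihood F test of edgeR 4.0.16 (R 4.3.3, limma 3.58.1): TMM scaling, filterByExpr, 15712 genes, 1 term per group, 8 residual degrees of freedom, no covariate. The SE is the absolute log2 fold change over the square root of F. Chain ratios used log2 CPM with a prior count of 2. Counting error weighs most on genes of few counts.

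Each replicate number occurs in every group, but the labels do not say that numbers mark shared animals or days. Same-numbered CC4:2 and VP4:2 samples deviated together (correlations of 0.119, 0.276 and 0.433), while those of Control and CC4:4 deviated in opposite directions (-0.141, -0.0557 and -0.402). The former is at most a hint of pairing, from these data alone. The unmatched CC4:2 replicate 2 and VP4:2 replicate 1 reached 0.183. Replicate 3 was also the DNBSEQ-T7 sample of each group, so number and platform cannot be told apart there. The main fit took no numbers as pairs in any comparison, and results with a block for the replicate number are given beside it. The fit was tested on simulated data for CC4:2 against Control (15542 genes). It recovered 24 of 100 genes changed 2-fold and 80 of 100 changed 4-fold, with 0 false calls. In the deposited counts that comparison called far more genes, 6831 of 15712. Recovery and false calls with that many genes changed were not tested. Alternatives were RLE scaling, no filter on low counts, DESeq2 1.42.0, limma-voom, only the 6 samples compared, a block for the replicate number, a platform covariate, NovaSeq samples only, a test against a change of at least 1.5-fold, and each library left out. Every collagen gene may be named. Values per sample were set for 15 chains and for up to 3 further genes per class of smallest p, and of each pathway list the 3 of smallest p were to be named. The other pathway genes named, and values per sample for further chains (Col11a1, Col6a6 and Col8a2 among them), were chosen after their values were seen. The members and lists were chosen with earlier results of these data known. Promoter sequences are from RefSeq, build GRCr8, matched by symbol. Genes that share sequence with a relative can share reads, and how the counting split such reads is not recorded.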

Additional observations from a re-analysis of the deposited data

How the results depend on the processing

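For collagen genes called, counts outside 1.5 times the main one were as follows. CC4:2 against Control gave 16, 7 in the NovaSeq samples alone, and 13 to 26 with a library left out. CC4:4 against Control gave 0, and 0 to 4 with a library left out. VP4:2 against CC4:2 gave 2, but 5 with DESeq2, 4 with limma-voom, 4 with only the 6 samples compared, 1 for a change of at least 1.5-fold, 0 in the NovaSeq samples alone, and 1 to 5 with a library left out. CC4:2 against CC4:4 gave 11, 7 in the NovaSeq samples and 8 to 15 with a library left out. VP4:2 against Control gave 10, but 2 with only the 6 samples compared, 2 for at least 1.5-fold, 0 in the NovaSeq samples and 2 to 10 with a library left out. Samples and genes are fewer in some of these settings, the NovaSeq controls include Control replicate 1, and other causes were not tested.

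For all genes called, CC4:2 against Control gave 6831, but 4363 with only the 6 samples compared, 3537 for at least 1.5-fold and 3222 in the NovaSeq samples (5247 to 7231 with a library left out). CC4:4 against Control gave 0, but 10 with DESeq2 (0 to 296 with a library left out). VP4:2 against CC4:2 gave 979, but 1861 with DESeq2, 372 for at least 1.5-fold and 202 in the NovaSeq samples (466 to 1496). CC4:2 against CC4:4 gave 6157, but 2938 for at least 1.5-fold and 3252 in the NovaSeq samples (4222 to 7218). VP4:2 against Control gave 2965, but 1869 with only the 6 samples compared, 711 for at least 1.5-fold and 19 in the NovaSeq samples (1168 to 4294).

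Over all groups, same-numbered samples correlated in their deviations from group means by -0.402 to 0.433, over 0.1 in 7 of 18 pairs, and 5 of 12 samples were closest to their own number. Of the 5 comparisons, in VP4:2 against CC4:2 every pair was over 0.1 (3 of 3). With a replicate block the collagen counts were 14, 0, 3, 12 and 7, in the order above, and the counts over all genes 6334, 0, 853, 5706 and 2505. Of 4408 single-gene values recomputed, 4193 kept their side of the threshold, 152 lost a call and 62 gained one. Where a call was made with or without the change, the direction turned for 1, Col11a1 in VP4:2 against Control, at 1.69 without Control replicate 1 and from -1.10 to 1.69 over the libraries left out. Of 210 values by gene and comparison, 63 lay on both sides of 0 with a library left out, and 0 of these were called with all samples. RLE scaling of class sums and a prior count of 0.5 for ratios moved 0 of 95 values by as much as the SD between replicates. Counting error is largest, relative to the level, for genes of few counts such as Col4a6.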

Other observations

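Within CC4:2, replicate 2 held the most collagen RNA of the 3 stumps, with Col1a1 at 24778 CPM against 8595 and 13355, and Col4a1 at 3552 against 1349 and 2063. Its 10 fibroblast markers summed to 4100.3 CPM, below the 4959 and 4523 of the others. Markers of pericytes were higher there, at 1229.9 against 699.7 and 897. So were those of skeletal muscle (9736 against 994 and 236), smooth muscle (1201 against 602 and 579) and endothelium (1464 against 946 and 1205). Both muscle lists hold the gene Des, so their sums are not separate. The part of these cells in the collagen values was not tested.

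The 2 genes left untested had few counts in all 12 samples together, 31 for Col10a1, the hypertrophic cartilage collagen, and 76 for Col25a1.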
